A study of Mus musculus with 6 samples.

Results

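Amino acid transporters were followed in the uterine luminal layer and in blastocysts of mice with and without epithelial *Lif*, the gene for leukemia inhibitory factor. Members were the genes whose symbol was Slc1a, Slc3a, Slc6a, Slc7a, Slc36a, Slc38a or Slc43a followed by a number, which gave 59 of the 23420 genes in each of the count tables. They comprised 7 Slc1, 2 Slc3, 17 Slc6, 15 Slc7, 4 Slc36, 11 Slc38 and 3 Slc43 genes, all 59 protein coding in GENCODE. *Slc6a20a* and *Slc6a20b*, whose symbols end in a letter, fell outside the name rule and had at most 5 counts in any library.

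Each of the 6 groups was 1 library with no replicate, and all material was taken on day 4 of pregnancy at 8 pm, just ahead of embryo attachment. The uterine groups were Lif-floxed/floxed females without Cre (control), Lif-floxed/floxed females with Ltf-Cre/+ (*Lif* eKO), and such eKO females injected intraperitoneally with recombinant Lif (rLif). The dose was 20 µg per head at 10 am and again at 6 pm, dissection followed after 2 h, and the other groups received PBS. The Ltf-Cre driver acts in the uterine epithelium, so the stroma kept its floxed *Lif* alleles. The luminal layer was cut out by laser microdissection and RNA of several samples was pooled. Blastocysts were flushed from several females of each group and pooled, and all 3 embryo groups were labelled Lif-floxed/+, so the groups differ by the mother and her treatment rather than by the embryo's own genotype.

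Cells take up most amino acids through carriers, because charged and polar molecules do not cross the membrane on their own. Slc1 carriers move glutamate or small neutral amino acids with sodium, Slc38 carriers move glutamine and alanine, and Slc6 carriers move neurotransmitters, taurine, creatine or amino acids. The light chains of Slc7 work as exchangers only when joined to a heavy chain of the Slc3 family, which carries them to the membrane. The cationic transporters of Slc7 work without a heavy chain and bring in arginine and lysine. In the mouse, uptake of leucine and arginine by the blastocyst is known to precede the outgrowth of trophectoderm at implantation.

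*Lif* itself was examined first. In the luminal layer no read was counted for it under the labels control and eKO with rLif (0 and 0 counts), and 28 were counted under the label eKO. The library labelled eKO thus held 0.975 CPM, a read count scaled to a common library size by TMM (exact Poisson 95% interval 0.648 to 1.41), and the other luminal libraries lay below a floor of 3 counts, 0.119 and 0.115 CPM. The order went against the labels, so the luminal groups are named by their labels below. The count takes in all exons of *Lif*, while Cre removes only part of the gene, so reads from the part that remains would still be counted and the count is no full check of the deletion. On day 4 *Lif* is known to be made chiefly by the uterine glands. In blastocysts *Lif* reached 1447, 1736 and 1250 counts across control, eKO and eKO with rLif, and there it checks nothing, since the deletion was in the mother.

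Total counts ran from 18996158 to 28460465 per library. The luminal libraries held all 10 uterine epithelial markers, at a summed 5607, 8176 and 5927 CPM (control, eKO, eKO with rLif). They also held all 12 stromal markers at a summed 1050, 1533 and 1043 CPM, and the gland marker *Foxa2* had 3, 0 and 10 counts. The blastocyst libraries held all 6 trophectoderm markers at a summed 2837, 3076 and 3159 CPM and all 5 inner cell mass markers at 643, 681 and 849 CPM. *Wnt7a*, a marker of the uterine epithelium, had 0 counts in all 3 of them. In bulk RNA, fewer cells of a type and less RNA per cell cannot be told apart.

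The promoters of *Slc7a11*, *Slc7a7* and *Slc38a2* are shown because these 3 members were the ones called higher in both other luminal libraries than in the library labelled control. Each is a RefSeq window of 300 bases, 250 before the start site and 50 from it, written 5′ to 3′ on the gene's strand (GRCm38.p6). Capitals mark TTCNNNGAA, the core bound by STAT factors, which act downstream of Lif, and TGATGNAA, the core of the amino acid response element, both searched on both strands. No matches overlapped.
*Slc7a11* (chr3:50443564-50443863, minus strand): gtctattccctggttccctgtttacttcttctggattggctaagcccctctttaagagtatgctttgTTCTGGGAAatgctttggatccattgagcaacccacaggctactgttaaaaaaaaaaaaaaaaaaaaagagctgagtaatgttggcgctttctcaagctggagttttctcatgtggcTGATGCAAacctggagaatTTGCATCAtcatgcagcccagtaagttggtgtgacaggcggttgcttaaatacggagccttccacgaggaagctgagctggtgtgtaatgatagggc
*Slc7a7* (chr14:54417653-54417952, minus strand): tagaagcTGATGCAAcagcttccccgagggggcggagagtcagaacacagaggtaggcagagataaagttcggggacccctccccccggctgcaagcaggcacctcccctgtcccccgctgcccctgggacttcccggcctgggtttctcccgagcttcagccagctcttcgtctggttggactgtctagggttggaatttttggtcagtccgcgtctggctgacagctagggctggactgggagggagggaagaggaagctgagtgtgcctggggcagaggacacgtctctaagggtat
*Slc38a2* (chr15:96699679-96699978, minus strand): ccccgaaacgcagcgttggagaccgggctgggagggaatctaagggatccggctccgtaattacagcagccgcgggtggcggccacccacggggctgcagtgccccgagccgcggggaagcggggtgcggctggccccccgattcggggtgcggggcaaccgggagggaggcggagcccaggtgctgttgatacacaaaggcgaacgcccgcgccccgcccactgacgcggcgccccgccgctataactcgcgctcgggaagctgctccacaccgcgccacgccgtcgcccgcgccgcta

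The *Slc7a11* window held the response element core at -66 to -59 and at -47 to -40, counted from the start site, and the STAT core at -183 to -175. The *Slc7a7* window shown held the response element core at -243 to -236, and a start site farther upstream had a second match, TGATGAAA, at -141 to -134. The other RefSeq windows of *Slc7a7*, which begin at 54417630, 54410154 and 54409423 on chromosome 14, held neither motif. The *Slc38a2* window held neither. Of 32851 RefSeq promoter windows of the same length, 8.30% held TTCNNNGAA and 3.97% held TGATGNAA. Windows were found for 41 of the 59 members (62 windows), and 6.45% of these held each motif. The remaining member matches were TTCNNNGAA at *Slc1a3*, *Slc38a9* and *Slc7a1* and TGATGNAA at *Slc1a4*. These are matches of letters, and no binding was measured.

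Levels were compared between genes as RPKM, the TMM-scaled CPM per kilobase of exon. In the luminal libraries, *Slc1a1* (chromosome 19, 28835166 to 28913960), the neuronal and epithelial carrier of glutamate and cysteine, had the highest RPKM of all members, at 175.5 (labelled control), 71.7 (labelled eKO) and 151.7 (labelled eKO with rLif). *Slc1a5* (chromosome 7, 16781346 to 16798274), which exchanges glutamine and other small neutral amino acids, followed in the library labelled control at 156.1 RPKM. The heavy chain *Slc3a2* stood at 42.1, 48.1 and 69.5 RPKM. *Slc6a6*, the taurine transporter, and *Slc38a2*, a system A carrier of alanine and glutamine, came next in the library labelled control at 34.5 and 25.6 RPKM. The order after *Slc1a1* differed between the libraries, and in the library labelled eKO *Slc38a2* at 67.8 RPKM and *Slc1a5* at 67.1 RPKM were nearly level.

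A few members made up most of the summed transporter level. The 3 highest members held 72.3%, 53.2% and 63.8% of the summed member RPKM in the luminal libraries, in that order of labels. The same share in blastocysts was 39.0%, 39.8% and 39.0%, so the level was spread over more members there. In each library between 22 and 26 of the 59 members reached 1 RPKM, which is 37.3% to 44.1% against 45.8% to 49.2% of all genes.

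**Figure D1:**
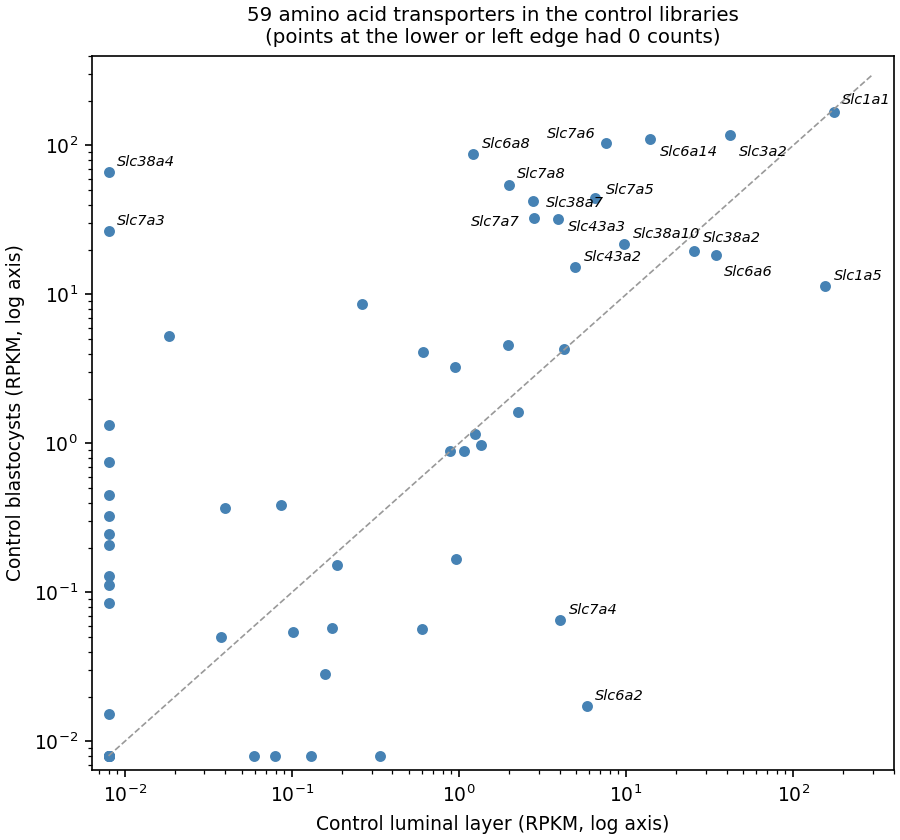
Each point is 1 of the 59 members, placed by its RPKM (log axes) in the luminal library labelled control (horizontal) and in control blastocysts (vertical). *Slc1a1* lies near the dashed line of equal values at 175.5 and 166.8 RPKM, while *Slc38a4* and *Slc7a3* sit at the left edge with 0 counts in the luminal library and *Slc1a5* lies below the line.

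The control libraries of the tissues differed in which members they held. At 1 RPKM or more, 19 members were present in both control libraries, 4 in the luminal one, 7 in blastocysts, and 29 in neither. The tables were scaled separately, so these levels are set side by side as a description. *Slc38a4*, a system A carrier known from placenta and liver, had 4951, 6169 and 5022 counts in the blastocyst libraries and 0 in all 3 luminal ones, where the exact Poisson 95% interval reaches up to 0.146 CPM. *Slc7a3*, a cationic arginine transporter, stood at 26.6 RPKM in control blastocysts and at 0 counts in the luminal library labelled control. *Slc6a2*, the noradrenaline transporter, showed the reverse, at 5.83 RPKM in that luminal library and 0.0173 RPKM in control blastocysts.

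The light chains and their partner also differed in level between the tissues. The 10 light chains together reached 19.2, 23.9 and 24.9 RPKM in the luminal libraries and 237, 199 and 160 RPKM in blastocysts. The heavy chains reached 42.2, 48.1 and 69.5 RPKM in the luminal layer and 118, 88.4 and 67.6 RPKM in blastocysts, almost all of it *Slc3a2*. In the luminal libraries the summed heavy chain level was thus above the summed light chain level, and in blastocysts it was below it. The other heavy chain, *Slc3a1*, which serves cystine uptake in kidney, had 5, 1 and 1 counts in the luminal libraries and 17, 15 and 3 in blastocysts, and its exons overlap those of *Prepl*.

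In the luminal layer, 42 of the 59 members had at least 10 counts summed over the 3 libraries and were compared. Another 12 had 0 counts in all 3 and 5 had fewer than 10. A member was called higher or lower where the exact 95% counting interval of the ratio between libraries lay wholly beyond 2-fold. This rule sets 1 library against another, has no replicate check and gives no p-value.

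The first comparison set the luminal library labelled eKO against that labelled control. Between the libraries labelled eKO and control, 6 members were called higher and 6 lower, 28.6% of the 42, where the rule called 17.2% of 15694 genes (8.08% higher and 9.15% lower). The median log2 ratio of the members was 0.19, against 0.00 over all genes. The lower members included both abundant Slc1 carriers and the Slc43 leucine carriers, and the higher ones included *Slc38a2* and the light chains *Slc7a11* and *Slc7a7*.

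In the library labelled control *Slc1a1* had 16429 counts, against 7639 in that labelled eKO and 14643 in that labelled eKO with rLif. The library labelled eKO was the low one, with a log2 ratio to control of -1.29 (95% interval -1.33 to -1.25), and with rLif the ratio to eKO was 1.08 (1.04 to 1.12). *Slc1a5* had 10869, 5311 and 8313 counts in the same order, again lowest in the library labelled eKO. Its log2 ratio of eKO to control was -1.22 (-1.27 to -1.17), and its ratio of eKO with rLif to eKO was 0.79, inside the limit. The 7 Slc1 members together stood at 336, 147 and 272 RPKM.

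*Slc1a3*, a glutamate carrier best known from glia, went the other way at a far lower level, with 28, 150 and 79 counts. Its log2 ratio of eKO to control was 2.24 (1.65 to 2.87). The Slc1 members were therefore called in both directions, 1 higher and 2 lower of 7.

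*Slc38a2* (chromosome 15, 96687392 to 96699698) counted 2986 reads under the label control, 9007 under eKO and 6535 under eKO with rLif. Both other libraries lay above control, with log2 ratios of 1.41 (1.35 to 1.47) and 1.09 (1.02 to 1.15). Of the 8 Slc38 members compared, 6 were called in no direction between eKO and control. *Slc38a7*, a lysosomal glutamine carrier, had 230, 128 and 243 counts, and its log2 ratios of -1.03 and 1.07 had intervals reaching inside 2-fold.

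*Slc7a11* (chromosome 3, 50364936 to 50443613), the light chain that exchanges cystine for glutamate and feeds glutathione synthesis, had 37, 500 and 385 counts. It had the largest ratio of the luminal members with at least 50 counts in a library, at a log2 ratio of 3.57 (3.09 to 4.09) for eKO and 3.33 (2.85 to 3.86) for eKO with rLif against control. Its level stayed low beside the other carriers, at 0.16, 1.89 and 1.60 RPKM. *Slc7a7* (chromosome 14, 54369442 to 54417702), the light chain that exports arginine and lysine, had 177, 644 and 639 counts, with log2 ratios of 1.68 (1.44 to 1.93) and 1.81 (1.57 to 2.06) against control. The libraries labelled eKO and eKO with rLif lay close together for both genes. Exons of *Slc7a7* overlap those of *Oxa1l*, so part of its counts may belong to that gene.

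The Slc43 carriers *Slc43a1* and *Slc43a2*, which pass leucine and other large neutral amino acids without sodium, were lower in the library labelled eKO. *Slc43a2* (chromosome 11, 75531694 to 75577572) had 907, 225 and 151 counts, with log2 ratios to control of -2.20 (-2.41 to -1.98) for eKO and -2.63 (-2.89 to -2.38) for eKO with rLif. *Slc43a1* had 166, 64 and 82 counts. Its log2 ratio was -1.56 (-2.00 to -1.14) for eKO, and -1.06 for eKO with rLif, where the interval of -1.46 to -0.67 reached inside 2-fold. The glycine transporter *Slc6a9* had 112, 34 and 25 counts and was lower against control in both, by log2 ratios of -1.91 (-2.50 to -1.34) and -2.21 (-2.90 to -1.57). Its exons overlap those of *Ccdc24*.

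**Figure D2:**
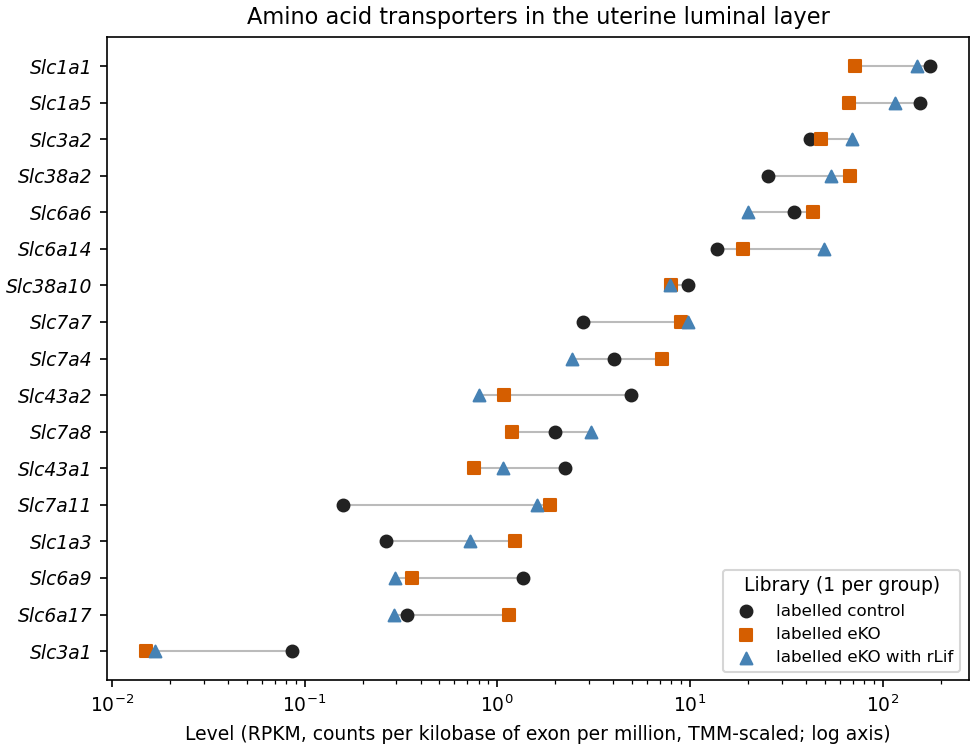
Level (RPKM, log axis) of the named luminal members, 1 row each, with 1 point per library joined by a grey line that spans the 3 luminal libraries. *Slc1a1* and *Slc1a5* are lowest in the library labelled eKO, and *Slc38a2*, *Slc7a7* and *Slc7a11* are lowest in the library labelled control.

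The next comparison turned to the library labelled eKO with rLif. For the library labelled eKO with rLif set against that labelled eKO, 4 members were called higher and 4 lower, 19.0% of the 42, where the rule called 15.6% of all genes (7.88% higher and 7.77% lower). The median log2 ratio was 0.02 for the members and -0.01 over all genes. Beside *Slc1a1*, the higher members with at least 50 counts were *Slc6a14* and *Slc7a8*, and the lower ones were *Slc6a6*, *Slc7a4* and *Slc6a17*.

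*Slc6a14* (chromosome X, 21714900 to 21742357), a carrier of neutral and cationic amino acids, had 1205, 1858 and 4423 counts. It was highest in the library labelled eKO with rLif, with log2 ratios of 1.39 (1.31 to 1.47) to eKO and 1.83 (1.74 to 1.92) to control. *Slc7a8*, a light chain for neutral amino acids, had 203, 139 and 321 counts, and its log2 ratio of eKO with rLif to eKO was 1.35 (1.06 to 1.65). *Slc3a2* had 3147, 4089 and 5354 counts, in the same order as *Slc6a14*. Its largest log2 ratio, 0.72 between eKO with rLif and control, lay inside the limit.

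*Slc6a6* had 5380, 7674 and 3222 counts and was lowest in the library labelled eKO with rLif, at a log2 ratio of -1.11 (-1.17 to -1.05) to eKO. *Slc7a4*, a Slc7 member grouped with the cationic transporters by sequence, had 330, 668 and 205 counts, for a log2 ratio of -1.56 (-1.80 to -1.33). *Slc6a17*, a vesicular neutral amino acid carrier of neurons, had 54, 209 and 48 counts. It was highest in the library labelled eKO, at log2 ratios of 1.77 (1.33 to 2.23) to control and -1.98 (-2.46 to -1.52) for eKO with rLif against eKO.

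Against the library labelled control, the library labelled eKO with rLif had 6 members higher and 3 lower, 21.4% of the 42, where the rule called 9.16% of all genes (4.12% higher and 5.04% lower). The median log2 ratio was -0.04 for the members and 0.01 over all genes. The higher ones with at least 50 counts were *Slc7a11*, *Slc7a7*, *Slc38a2* and *Slc6a14*. The comparisons share libraries, so they are not independent of each other.

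The remaining calls in the luminal layer rested on under 50 counts in every library. These members fell outside the naming rule and are named after their values were seen. *Slc36a2*, a proton-coupled carrier of glycine and proline, had 0, 0 and 18 counts, at least 6.62-fold higher with rLif than in the library labelled eKO and at least 5.82-fold higher than in that labelled control, against a floor of 3 counts per library. *Slc6a12*, the betaine carrier, had 0, 5 and 16 counts, on that floor 5.17-fold higher with rLif than in control (lower log2 limit 1.90). *Slc38a3* had 12, 0 and 6 counts and was on that floor 4.55-fold lower in eKO than in control (upper log2 limit -1.66). *Slc1a2* had 18, 46 and 1 counts, with a log2 ratio of -5.38 (-10.7 to -2.83) between eKO with rLif and eKO and of -4.21 (-9.60 to -1.55) between eKO with rLif and control. *Slc6a13* had 1, 17 and 4 counts, a log2 ratio of 3.90 (1.23 to 9.29) between eKO and control. The wide intervals show how little these counts fix the size.

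Other abundant luminal members differed less. *Slc38a10* had 1335, 1239 and 1117 counts, *Slc7a6* had 711, 441 and 529, *Slc7a5* had 582, 756 and 433, and *Slc6a2* had 894, 1162 and 1161. The arginine transporter *Slc7a1* had 356, 393 and 344 counts. None of these was called in any of the 3 comparisons.

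Markers of other cell types also differed between the luminal libraries. The 4 gland markers found in the table summed to 7.76, 5.22 and 18.8 CPM (control, eKO, eKO with rLif). Of these, 3 were called higher with rLif than in eKO, 75% against 7.88% of all genes. Among them were *Prss28* at 55, 13 and 142 counts and *Prss29* at 123, 111 and 315. The 8 smooth muscle markers summed to 72.0 CPM in the library labelled control, 50.9 CPM in that labelled eKO and 31.7 CPM with rLif, and *Myocd* was at 0 in the libraries labelled control and eKO. The 8 immune markers found in the table summed to 1853, 2004 and 2383 CPM, and they did not move together. Most of the sum was *Cd14*, which rose (1037, 1319 and 1732 CPM), and *Lyz2*, which fell (745, 612 and 549 CPM). *Ptprc* had 225, 402 and 390 counts, *Cd3e* 28, 27 and 6, and *Ncr1* 346, 450 and 222. With rLif against control 0 of the 8 were called, against 9.16% of all genes. The summed level of the 12 stromal markers was highest in the library labelled eKO, as given above, although *Hand2* and *Pdgfrb* were highest with rLif and *Hoxa11* in control, and the epithelial keratin *Krt19* had 8537, 57150 and 9081 counts. Their part in the transporter differences was not tested.

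In blastocysts, 40 of the 59 members passed the filter, 9 had 0 counts in all 3 libraries and 10 had fewer than 10. *Slc1a1* again had the highest mean RPKM, at 166.8, 152.5 and 94.7 in control, eKO and eKO with rLif. The light chain *Slc7a6*, which exchanges cationic and neutral amino acids, stood at 104.6, 112.1 and 103.0 RPKM. *Slc6a14* stood at 110.5, 107.5 and 74.0 RPKM, *Slc6a8*, the creatine transporter, at 87.6, 99.1 and 98.5 RPKM, and *Slc3a2* at 117.9, 88.1 and 67.5 RPKM. *Slc7a6* and *Slc6a8* stood within a narrow range across the libraries, and *Slc1a1*, *Slc6a14* and *Slc3a2* were lowest with rLif.

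The first blastocyst comparison set embryos of females labelled eKO against those of control females. Between blastocysts of eKO and control females 1 member was called higher and 1 lower, 5% of the 40, where the rule called 3.15% of 14873 genes (1.29% higher and 1.86% lower). The median log2 ratio was -0.12 for the members and -0.00 over all genes. Both called members were rare transcripts outside the naming rule for embryos, named after their values were seen. *Slc7a11* had 5, 28 and 9 counts, a log2 ratio of eKO to control of 2.45 (1.06 to 4.18). *Slc7a9*, the partner of *Slc3a1*, had 14, 1 and 6 counts, a log2 ratio of -3.84 (-9.25 to -1.13). *Slc7a8* was not called, at -1.07, with an interval that began at -1.15 and ended just inside 2-fold.

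The blastocysts of rLif-treated eKO females, compared with those of eKO females, had 0 members called higher and 1 lower, 2.5% of the 40, where the rule called 3.75% of all genes (0.914% higher and 2.83% lower). The median log2 ratio was -0.19 for the members and -0.01 over all genes. Against control blastocysts, 0 members were called higher and 5 lower, 12.5% of the 40, where the rule called 4.94% of all genes (0.948% higher and 3.99% lower), and the medians were -0.09 and -0.01. The 5 were the light chains *Slc7a8* and *Slc7a7*, the arginine transporter *Slc7a3*, the system A carrier *Slc38a2* and the leucine carrier *Slc43a2*.

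*Slc7a8* (chromosome 14, 54722215 to 54781886) had 4195 counts in control blastocysts, 2046 in those of eKO females and 612 in those of eKO females given rLif. The 3 libraries were far apart, at 54.5, 25.9 and 7.80 RPKM, and the log2 ratio of eKO with rLif was -1.73 (-1.87 to -1.60) to eKO and -2.81 (-2.93 to -2.68) to control. *Slc38a2* had 1734, 1059 and 515 counts, and eKO with rLif stood at a log2 ratio of -1.78 (-1.92 to -1.64) to control. Set against eKO it was -1.03, and that interval (-1.19 to -0.88) reached inside 2-fold.

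*Slc43a2* had 2100, 1371 and 918 counts, with a log2 ratio of eKO with rLif to control of -1.22 (-1.34 to -1.11). *Slc7a7* had 1559, 1092 and 676 counts, for a log2 ratio of -1.23 (-1.37 to -1.10). For both, the eKO library lay between the others. *Slc7a3* had 1201, 1114 and 545 counts, with a log2 ratio of -1.17 (-1.32 to -1.02), and here the control and eKO libraries lay close together. *Slc3a2*, the heavy chain that *Slc7a7* and *Slc7a8* join, had 6649, 5094 and 3881 counts, for a log2 ratio of -0.80, inside the limit. The 10 light chains together stood in the same order, at the 237, 199 and 160 RPKM given above.

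**Figure D3:**
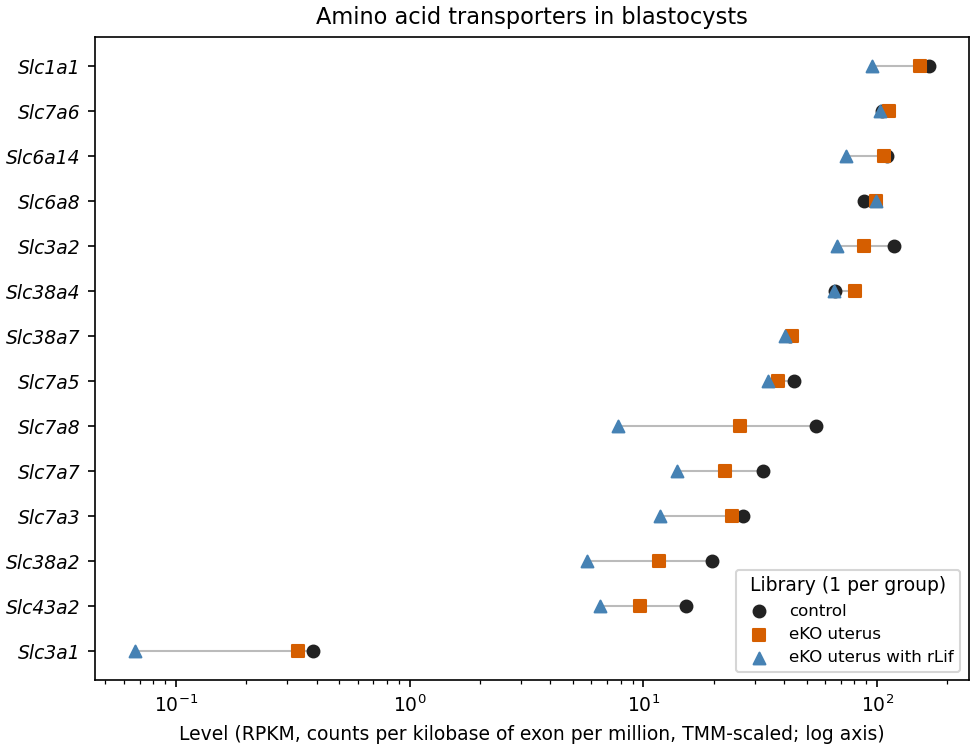
Level (RPKM, log axis) of the named blastocyst members, 1 row each, with 1 point per library joined by a grey line that spans the 3 blastocyst libraries. *Slc7a8*, *Slc38a2*, *Slc43a2* and *Slc7a7* stand highest in control and lowest in eKO with rLif, while *Slc7a6*, *Slc6a8*, *Slc38a4* and *Slc38a7* lie within a narrow range.

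The 3 blastocyst libraries were also put in order for each member, a count added after the values were seen. Of the 40 members compared, 19 were highest in control, lower in eKO and lowest in eKO with rLif, which is 47.5% against 18.9% of all genes. The opposite order was found in 3 members, 7.5% against 17.7% of all genes. In the luminal layer, 6 of 42 members had the first order, 14.3% against 12.8% of all genes, and 9 had the opposite order, 21.4% against 12.7%. Many of these steps were small, and at a limit of 1.5-fold 10 blastocyst members were called lower in eKO with rLif than in control (25% against 7.17% of all genes), among them *Slc1a1*, *Slc3a2*, *Slc38a1* and *Slc7a1*.

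Several embryo members differed less between the libraries. *Slc7a6* had 7435, 8171 and 7468 counts, *Slc38a7* had 2649, 2777 and 2583, *Slc38a4* had 4951, 6169 and 5022, and *Slc7a5*, the leucine exchanger, had 2954, 2596 and 2321. None of these 4 was called in any comparison, even at a limit of 1.5-fold. *Slc43a3*, by contrast with the other Slc43 members, was highest with rLif, at 1597, 1314 and 2372 counts, and was not called at 2-fold either.

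Some marker genes of maternal and of embryonic cell types fell from control to eKO to eKO with rLif. In the embryo's own lineages *Elf5* had 1988, 1311 and 902 counts and *Sox7* 434, 323 and 113. *Cdx2* had the opposite order, at 11832, 16038 and 18477, as had the primitive endoderm markers *Gata6* (3454, 3547 and 5388) and *Sox17* (2081, 2233 and 2531). *Gata4* was highest in eKO, at 1904, 2258 and 1484. The 4 primitive endoderm markers summed to 413, 428 and 490 CPM. With rLif against control, 1 of 6 trophectoderm and 1 of 4 primitive endoderm markers were called lower and 0 higher. In either direction this is 16.7% and 25% against 4.94% of all genes. The stromal genes *Col3a1* and *Dcn* had 122, 60 and 28 counts and 164, 84 and 51 counts. Of the 11 stromal markers compared, 6 were called lower in eKO with rLif than in control, 54.5% against 3.99% of all genes. The 12 stromal markers summed to 173, 177 and 165 CPM, with *Hand2* at 0 in eKO, but most of that sum was *Pdgfra*, which primitive endoderm also makes (123, 146 and 140 CPM). Without *Pdgfra* and *Pdgfrb* the other 10 summed to 38.7, 15.8 and 12.3 CPM. The 4 gland markers found in the table summed to 5.56, 3.12 and 1.54 CPM, nearly all of it *Foxa2* (103, 61 and 26 counts), which embryonic endoderm can also make. *Prss28* was at 0 in all 3 libraries, and *Prss29* and *Wfdc3* had at most 4 counts. The keratin *Krt19*, which trophectoderm and uterine epithelium both make, had 1401, 241 and 108. The 8 immune markers summed to 62.3, 134 and 27.5 CPM, highest in eKO. Their part in the transporter differences was not tested.

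**Figure D4:**
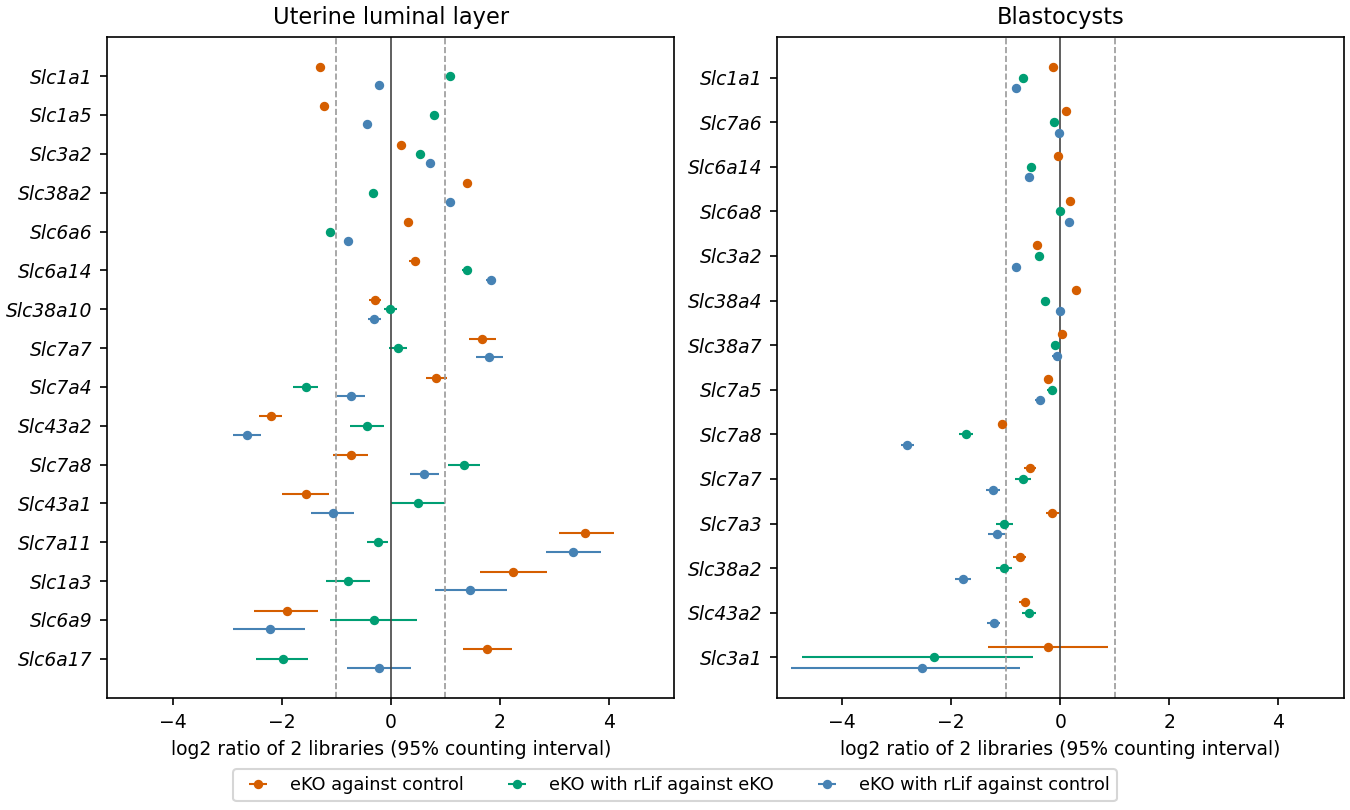
Log2 ratios of the named members for the 3 comparisons in the luminal layer (left) and in blastocysts (right), with 95% counting intervals; dashed lines mark 2-fold. Luminal ratios lie on both sides of 0 and reach 3.57 at *Slc7a11*, while most blastocyst ratios of eKO with rLif against control lie below 0 and *Slc7a8* reaches -2.81.

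Members called in both tissues did not always go the same way. Comparing eKO with rLif to control, *Slc38a2* and *Slc7a7* were higher in the luminal layer and lower in blastocysts, and *Slc43a2* was lower in both. Comparing eKO with rLif to eKO, *Slc7a8* was higher in the luminal layer and lower in blastocysts. Comparing eKO to control, *Slc7a11* was higher in both, though on 28 counts at most in blastocysts.

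Genes around the transporters were counted by lists set beside them. Among 16 other amino acid and peptide transporters, 13 were compared in the luminal layer, and 2 were called higher and 1 lower in eKO than in control, 23.1% against 17.2% of all genes. The higher pair were the peptide carriers *Slc15a2*, at 412, 5769 and 953 counts, and *Slc15a1*, at 20, 450 and 44 counts. Both peaked in the library labelled eKO, with log2 ratios to control of 3.62 (3.48 to 3.77) and 4.31 (3.66 to 5.03). Both were called lower again with rLif than in eKO, where 1 other gene of the list was called higher. These calls were 23.1% of the list against 15.6% of all genes. In blastocysts 0 of 13 were called between eKO and control or between eKO with rLif and eKO. The rule called 3.15% and 3.75% of all genes there. Against control, the libraries with rLif had 0 of 13 called in the luminal layer, where 9.16% of all genes were called. In blastocysts 1 was lower, *Slc15a1* at 29, 16 and 6 counts, 7.69% against 4.94% of all genes.

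Of 20 genes of the amino acid response, the pathway by which Gcn2 and Atf4 answer a shortage, 1 was called higher and 3 lower in the luminal library labelled eKO than in control, 20% against 17.2% of all genes. The 3 lower were *Trib3*, a kinase-like inhibitor of Atf4 (742, 47 and 903 counts), *Nupr1*, a stress-induced chromatin protein (12110, 1160 and 72411 counts), and the transcription factor *Cebpb* (20279, 6636 and 35920 counts). All 3 were called higher with rLif than in eKO, as was *Chac1*, a glutathione-degrading enzyme, and 2 genes of the list were called lower, in all 30% against 15.6% of all genes. *Slc7a11* and *Slc38a2*, whose genes Atf4 is known to bind, were high in the library labelled eKO. *Atf4* itself was lowest there, at 5402, 3810 and 6316 counts. The response list itself went both ways there, with a median log2 ratio to control of -0.24 against 0.00 over all genes. *Trib3*, *Nupr1* and *Cebpb* were low, and *Vldlr*, the 1 gene called higher, had 502, 1648 and 436 counts. *Ddit3* (484, 1101 and 509 counts) and *Aldh18a1* (942, 1930 and 1655 counts) also rose from control to eKO without a call. *Asns* (1171, 929 and 1738 counts), *Cebpg* (10146, 6472 and 11734) and *Chac1* (124, 56 and 199) fell from control to eKO without a call. A link to the transporters was not tested. In blastocysts *Nupr1* had 440, 1095 and 472 counts. There 1 gene was called higher and 1 lower in eKO than in control, 10% against 3.15% of all genes. With rLif against eKO in blastocysts 0 were higher and 2 lower, 10% against 3.75%. With rLif against control, 1 gene was higher and 2 lower in the luminal layer (15% against 9.16% of all genes). In blastocysts 0 were higher and 1 lower (5% against 4.94%).

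Of 23 genes by which lysosomal amino acids reach mTORC1, the kinase complex that drives growth, 4 were called higher and 0 lower in the luminal library labelled eKO than in control. In either direction this is 17.4% against 17.2% of all genes. All 4 were higher, however, where the rule called 8.08% of all genes higher and 9.15% lower. One of them was *Sesn1*, a leucine-responsive inhibitor, at 299, 1142 and 203 counts. The others, none of them an inhibitor, were *Rragb* (47, 167 and 92 counts), *Lamtor3* (1483, 3588 and 2299) and *Lamtor4* (969, 2423 and 1906). *Sesn3*, of the same family as *Sesn1*, had 179, 86 and 76 counts and was not called. With rLif against eKO, 0 of the 23 were higher and 1 lower, 4.35% against 15.6% of all genes. In blastocysts *Fnip2* was the 1 gene called, at 924, 1356 and 243 counts, lower with rLif than in eKO and in control. This is 4.35% of the list in either comparison, against 3.75% and 4.94% of all genes. Of 18 enzymes of arginine, polyamine and glutamine metabolism compared in the luminal layer, 1 was called higher and 2 lower in eKO than in control. This is 16.7% against 17.2% of all genes. With rLif against eKO in that layer 2 were higher and 0 lower, 11.1% against 15.6%. The polyamine acetylating enzyme *Sat1* had 48238, 16271 and 83639 counts there, and arginase *Arg1* had 93, 45 and 288. *Arg1* was also called higher with rLif in blastocysts, at 8, 13 and 53 counts. Of the 21 enzymes compared in blastocysts, 2 were higher and 0 lower with rLif than in eKO, 9.52% against 3.75% of all genes. Against control 1 was higher and 0 lower, 4.76% against 4.94%. With rLif against control, the luminal layer had 0 of the 23 mTORC1 genes called, and 2 of the 18 enzymes higher and 1 lower (16.7%). The rule called 9.16% of all genes in that comparison.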

How the data were processed

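RNA was measured in 6 libraries, 1 per group, each from pooled material, and groups were taken from the sample labels. With no replicate, p-values are not given and no difference between groups has a replicate check. The authors made SMART-seq v4 libraries, aligned reads to GRCm38/mm10 with HISAT2 and counted them per gene with featureCounts (Subread 2.0.0). The deposited values are whole-number read counts per gene without normalization, 1 table per tissue, beside the exon length of each gene, although the study's methods name RPKM. The gene annotation, and how strand and reads mapping to several places were handled, were not given in the sources used here. Exons of 4 members overlap another gene (*Slc7a7*, *Slc6a9*, *Slc3a1*, *Slc7a10*), so their counts are uncertain.

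A gene was compared where its counts in the 3 libraries of a tissue summed to 10 or more (15694 and 14873 of 23420). Library sizes took TMM factors from edgeR 4.0.16 in R 4.3.3. Exact 95% intervals are Clopper-Pearson for ratios of 2 libraries and Poisson for single values (SciPy 1.17.1). They take in counting error alone, because 1 library per group gives no replicate spread. PCR copies are counted without molecular identifiers, so the intervals may be too narrow even for that error. A gene was called where the interval lay wholly beyond a log2 ratio of 1. Where a library had 0 counts, the ratio was computed with a floor of 3 counts in its place, and that value also entered the medians. Counts per library are given for the heavy chains, for members called with at least 50 counts in the highest library of that tissue, and for the 8 members of highest mean RPKM in each tissue. Others are given by counts and ranges or as examples. The members and lists were chosen with earlier results of these data known. Alternatives were DESeq2 1.42.0 size factors, total-count scaling, other filters and limits, edgeR's exact test at an assumed dispersion of 0.1 and TPM.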

Additional observations from a re-analysis of the deposited data

Results flagged for a closer look

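Some members were called in opposite directions in the luminal layer and in blastocysts under the same contrast, with 1 library per group in each tissue, and the difference between tissues was not tested. For eKO with rLif against control, the log2 ratio of *Slc38a2* was 1.09 in the luminal layer and -1.78 in blastocysts. For the same contrast, that of *Slc7a7* was 1.81 in the luminal layer and -1.23 in blastocysts. For eKO with rLif against eKO, that of *Slc7a8* was 1.35 in the luminal layer and -1.73 in blastocysts.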

How the results depend on the processing

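No paired analysis was possible because each group was 1 library without a replicate number. The numbers of members called, given for eKO against control, eKO with rLif against eKO and eKO with rLif against control, moved with the size limit. At 4-fold they were 1, 2 and 3 in the luminal layer and 0, 0 and 1 in blastocysts, and with edgeR's exact test they were 4, 2 and 4 and 0, 0 and 1. In luminal eKO against control the members then stood at 2.38% against 5.53% of all genes at 4-fold, below the background rather than above it as at 2-fold, and at 9.52% against 7.96% with edgeR. In luminal eKO with rLif against eKO they stood at 4.76% against 4.78% and 7.07%, and in eKO with rLif against control at 7.14% against 1.88% and 9.52% against 2.18%. The 1 blastocyst call in eKO with rLif against control is 2.5%, against 1% of all genes at 4-fold and 0.834% with edgeR. At 1.5-fold the numbers were 16, 11 and 13 in the luminal layer. They stood at 38.1%, 26.2% and 31.0%, against 31.9%, 27.4% and 19.9% of all genes. In eKO with rLif against eKO the luminal members were thus below the background. In blastocysts the numbers at 1.5-fold were 5, 7 and 10. These are 12.5%, 17.5% and 25%, against 6.16%, 8.26% and 9.51% of all genes in either direction. With a minimum of 50 counts 0 members were called in blastocysts between eKO and control. Total-count scaling took the calls of *Slc1a1* (log2 ratio 0.97) and *Slc7a8* (1.24) in luminal eKO with rLif against eKO and of *Slc38a2* (0.91) in luminal eKO with rLif against control inside the limit, and added *Slc7a8* in blastocysts of eKO against control (-1.08). All 90 log2 ratios of named members kept their direction and call with DESeq2 size factors. Under the other scalings, filters and sets, the members' medians stayed between the medians of their lower and upper counting limits. Medians were not computed for the other size limits or for edgeR's exact test. Leaving out the members with overlapping exons, or using only the compared libraries, both added after seeing the data, kept every number of calls within 1.5 times. On the TPM scale 88 of 93 levels lay outside the counting interval of the RPKM value, which rescales a library and keeps the order of genes within it. With 1 library per group, depth is not what limits the abundant members, and members under 50 counts are limited by it.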
